A study of Caenorhabditis elegans with 2 samples.

Results

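The presynaptic vesicle release genes studied here are 10 genes of Caenorhabditis elegans, given as a list of names: snb-1, unc-64, ric-4, unc-18, unc-13, snt-1, syd-2, syd-1, unc-10 and unc-104. All 10 were found among the 19973 coding genes of the nuclear chromosomes. FKH-4, a forkhead-family transcription factor, was mapped by ChIP-seq (sequencing of DNA precipitated with the bound protein) in 2 biological replicates of whole hermaphrodite L1 larvae. These form the only group, so no condition is compared. Both replicates came from strain OP100, in which a transgene, wgIs100, expresses FKH-4 with GFP and FLAG at its C terminus in the mutant background unc-119(tm4063). The sources used here give neither the promoter that drives the transgene nor the read depth. The larvae were starved after bleaching and collected 6 h after synchronisation, and chromatin was precipitated through GFP. Whole animals mix all cell types, so binding in fewer cells and weaker binding per cell cannot be told apart.

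Synaptic vesicles fuse with the presynaptic membrane when a SNARE protein on the vesicle zips together with SNARE proteins on the membrane. Priming factors prepare this assembly, a calcium sensor triggers it, and scaffold proteins of the active zone hold vesicles and calcium channels together. A kinesin motor carries vesicle precursors from the cell body to the synapse. These genes are expressed across the nervous system of the worm and many of their mutants are uncoordinated.

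FKH-4 peaks of the reproducible set lay at 2 of the 10 genes, the vesicle SNARE gene snb-1 and the active zone scaffold gene syd-2, both upstream of the gene start. The sequences under these 2 peaks are shown with those of the strongest peaks of unc-104 and unc-64, which did not reach the reproducible set. The syd-1 sequence is not shown, although its strongest peak on pooled reads exceeded that of unc-64 (signal 33.5 against 32.7). Each sequence shown runs 5' to 3' on the strand of its gene, 100 bp to either side of the summit (the point of highest signal), on ce11. They come from RefSeq's copy of WBcel235, with chrV:6656934-6657134 for snb-1, chrX:10555643-10555843 for syd-2, chrII:6996476-6996676 for unc-104 and chrIII:13276467-13276667 for unc-64. Capitals mark the words TTTTTT (either strand) and GCGCGC, which were chosen after the sequences had been seen.
snb-1: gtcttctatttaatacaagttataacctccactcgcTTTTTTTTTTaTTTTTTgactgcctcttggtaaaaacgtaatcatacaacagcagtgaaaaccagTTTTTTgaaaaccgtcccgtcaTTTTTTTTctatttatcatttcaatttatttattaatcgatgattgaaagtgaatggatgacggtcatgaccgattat
syd-2: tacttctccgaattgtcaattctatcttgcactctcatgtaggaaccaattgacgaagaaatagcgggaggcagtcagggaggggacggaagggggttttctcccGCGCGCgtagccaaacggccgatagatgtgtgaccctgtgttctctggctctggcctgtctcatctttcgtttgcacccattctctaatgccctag
unc-104: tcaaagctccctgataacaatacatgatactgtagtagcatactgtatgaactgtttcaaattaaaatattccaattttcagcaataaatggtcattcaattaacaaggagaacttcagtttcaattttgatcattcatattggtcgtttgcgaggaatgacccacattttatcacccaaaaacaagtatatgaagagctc
unc-64: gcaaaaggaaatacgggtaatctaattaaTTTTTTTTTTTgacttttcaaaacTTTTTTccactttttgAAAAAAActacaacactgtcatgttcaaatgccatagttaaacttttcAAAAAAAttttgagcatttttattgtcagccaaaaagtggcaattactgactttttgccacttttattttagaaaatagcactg

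The snb-1 and syd-2 peaks lie in sequence of opposite base composition. Within 50 bp of the summit the snb-1 window held 31.7% G and C and 93.2% of the 1189 windows of the reproducible set held at least as much. The syd-2 window held 59.4%, a value reached by 3.11% of the set. The median of the set was 44.6%. The unc-104 and unc-64 windows were AT-rich, with 27.7% and 26.7%. Of the marked words, TTTTTT occurred in 24.6% of the set's windows of this size, and among the 4 shown in those of snb-1 and unc-64. GCGCGC occurred in 5.63% of the set and only in the syd-2 window of the 4. The forkhead core TAAACA, searched on both strands, was in none of the 4 windows and in 6.06% of the set. The longer word GTAAACA, which contains it, was in 1.01%, GTCAACA in 0.757% and GAGAGA in 19.5%, and the 4 windows held none of them. A wider window of 100 bp to either side held none of these forkhead words or GAGAGA at any of the 4 peaks either, where 12.9% of the set held TAAACA.

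The authors deposited 4 lists on ce11. The reproducible set holds 1189 peaks that passed IDR (irreproducible discovery rate), a filter meant to keep peaks that rank alike in both replicates. They are also the 1189 strongest peaks called on pooled reads, and 1170 of them had a summit in both replicates. Membership therefore cannot be told apart from a cutoff on pooled signal. The relaxed lists, which also take in weak peaks and background, hold 30000 peaks called on pooled reads, 30000 of replicate 1 alone and 22442 of replicate 2 alone. Summits were read from 5 kb upstream of each gene to its end, windows of 5.94 to 36.3 kb. A summit is called promoter where it lies up to 1000 bp before or 200 bp after the transcription start site (TSS) of any coding transcript, internal elsewhere in the gene, and distal elsewhere upstream. The signal of a peak is the authors' own value, can be compared only within a list and has no replicate error; ranks count from the strongest peak.

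In the reproducible set, 2 of 10 genes had a promoter summit, where 4.77% of all coding genes had one. None had an internal summit (1.11% of all coding genes) or a distal summit (4.94%), so 2 of 10 had any, against 10.2%. No test of this count was made, and the genes were chosen with earlier results of these data known. Per length, the windows held 0.137 reproducible summits per 10 kb, against 0.139 over the windows of all coding genes. The 10 windows together cover 146 kb. In the pooled relaxed list all 10 genes had a summit (84.1% of all coding genes) and 5 had one in a promoter (40.8%), again at a similar density, 3.16 against 3.06 per 10 kb.

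**Figure D1:**
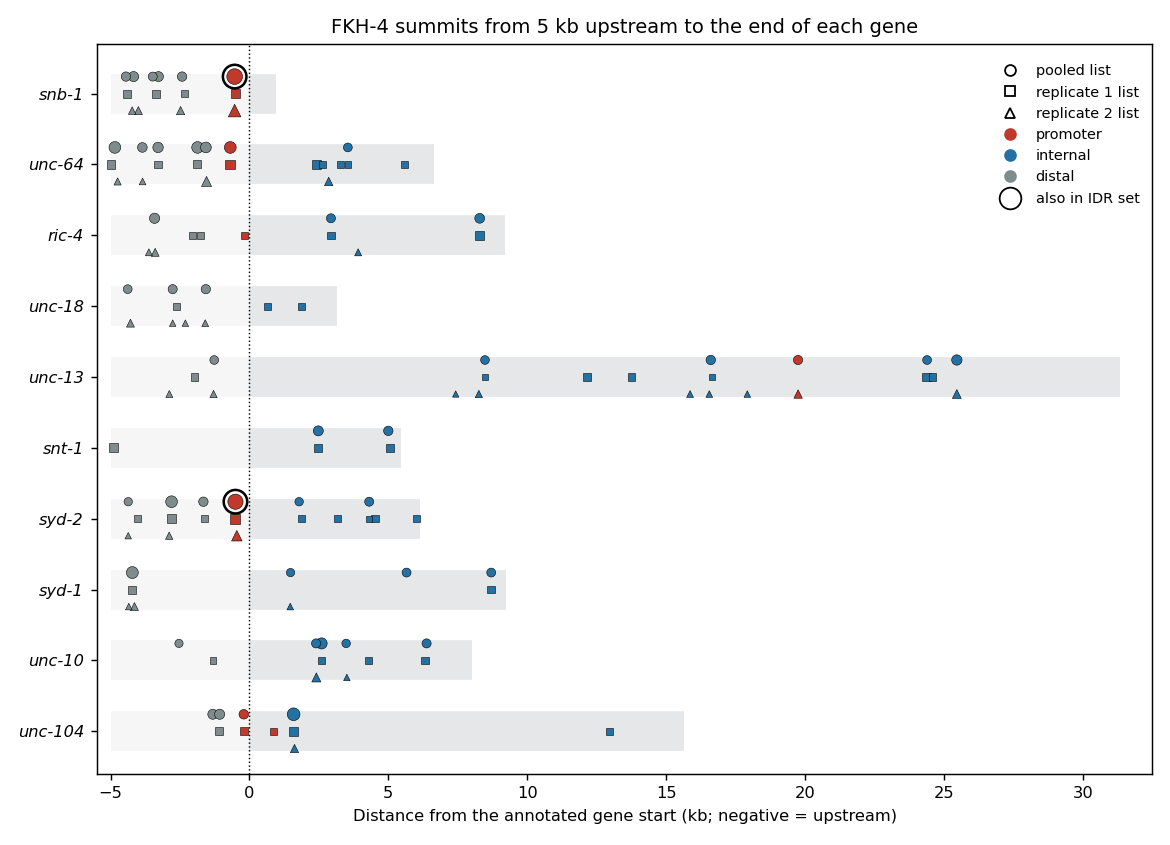
Position of every FKH-4 summit in the windows of the 10 genes, in kb from the annotated gene start with upstream to the left. Light grey bars are genes and the paler, nearly white bars the 5 kb upstream. Symbols give the list and colours the zone. Marker area grows with signal (comparable within a list only), and rings mark the reproducible set. Rings stand only upstream of snb-1 and syd-2.

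Among the 3 neuronal SNARE genes, snb-1 had the strongest FKH-4 peak in the pooled list and in replicate 2. In replicate 1 the strongest was at unc-64 (signal 22.9, rank 1521). The snb-1 gene encodes synaptobrevin, the SNARE on the vesicle, and lies on chromosome V (6655562 to 6656501, minus strand, WBGene00004897). Its pooled signal was 57.9, rank 996 of 1189, with the summit at 6657034, 533 bp upstream of its single TSS in intergenic sequence. Replicate 2 gave a signal of 37.5, rank 920, with its summit 1 bp away. Replicate 1 gave 20.3, rank 2372, 40 bp away, so the peak ranked higher in replicate 2. The −log10 q value deposited by the authors was 3.30 in the pooled list, 3.35 in replicate 2 and 0.456 in replicate 1. The values 3.30 and 3.35 are the highest of their lists, although the peak ranked only 996 and 920. They therefore do not mark it as one of the strongest peaks. No other coding promoter window holds this summit. The next gene on the same strand, syx-18, which encodes another syntaxin-family SNARE, begins 112 bp beyond the end of snb-1, and its start is 1585 bp from the summit. Farther upstream of snb-1, 5 weak pooled summits lay between 2425 and 4446 bp from its start with signals of 19.04 to 24.3, and 2 of these places had a summit in each replicate.

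The unc-64 gene, which encodes syntaxin on the presynaptic membrane, had a promoter summit in replicate 1 but none in replicate 2. It lies on chromosome III (13277258 to 13283887, plus strand, WBGene00006798). In replicate 1 the signal was 22.9, rank 1521, at 687 bp upstream of the gene start, a rank similar to that of the syd-2 peak in the same list. The pooled list gave 32.7, rank 3310, at 691 bp, with a −log10 q of 0.347. The nearest replicate 2 summit lay 854 bp from the pooled one, 1545 bp upstream of the gene, with a signal of 24.0 and rank 1912. The 5 kb upstream of unc-64 held 6 pooled summits in all, of signal 22.1 to 32.7. Within the gene, replicate 1 gave 5 summits and replicate 2 gave 1. No pair of summits from both replicates came within 200 bp anywhere in the window.

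The third SNARE gene, ric-4, encodes the SNAP-25 protein and lies on chromosome V (10261131 to 10270314, minus strand, WBGene00004364). Its 3 pooled summits had signals of 19.2 to 24.8. Replicate 1 gave a weak promoter summit 188 bp upstream of the gene start, with a signal of 11.3 and rank 20237, and replicate 2 gave none there. The strongest replicate 1 summit (17.8, rank 4104) lay in a coding exon, 704 bp downstream of an internal TSS, and the strongest of replicate 2 (15.0, rank 6007) lay 3394 bp upstream. The replicates shared no place within 200 bp.

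Neither of the genes that prepare SNARE proteins for fusion had a reproducible peak. UNC-18 binds syntaxin, and its gene lies on chromosome X (7682896 to 7686037, plus strand, WBGene00006757). Its window held the lowest best pooled signal of the 10, 20.5 at rank 15702, and 62.4% of coding genes had a window summit at least as strong. All 3 pooled summits of unc-18 were distal and lay nearer to a TSS of the neighbouring gene stn-2. At 1 of these places both replicates had a weak summit, with signals of 12.2 (rank 16367) and 9.96 (rank 18319), 145 bp apart. No list held a promoter summit at unc-18. UNC-13 primes docked vesicles, and unc-13 is the longest of the 10 genes (31.3 kb, chromosome I, 7422785 to 7454116, plus strand, WBGene00006752). It has 5 distinct coding TSSs. Replicate 2 gave a summit in an intron, 504 bp upstream of an internal TSS, with a signal of 16.8 and rank 4295. The pooled list held it at rank 16728 (20.0), and replicate 1 had no promoter summit at unc-13. The strongest pooled summit of unc-13 (25.4, rank 7857) lay in an intron, and replicate 2 had a summit there (18.7, rank 3276). The 1 place of unc-13 with both replicates was another intron, with signals of 10.3 and 10.6 at ranks 25167 and 16014.

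Synaptotagmin, the calcium sensor for release, is encoded by snt-1 on chromosome II (6810963 to 6816433, plus strand, WBGene00004921). Replicate 2 had no summit anywhere in its window, the only such case among the 10 genes. Replicate 1 gave 3, of signals 15.5 to 18.3, of which the strongest (rank 3638) was 4888 bp upstream, and none was in a promoter. The 2 pooled summits of snt-1 lay inside the gene, in an intron (23.6, rank 9967) and in a coding exon (20.9, rank 14688).

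Of the 3 active zone genes, syd-2 had a reproducible promoter peak. SYD-2 is the worm liprin-alpha, a scaffold needed to assemble active zones, and syd-2 lies on chromosome X (10549106 to 10555239, minus strand, WBGene00006364). The pooled summit stood at 10555743, 504 bp upstream of the gene start, with a signal of 54.4 and rank 1086. The replicates gave similar ranks, 1305 in replicate 1 (signal 24.0, 13 bp away) and 1610 in replicate 2 (26.3, 49 bp away). The −log10 q of the syd-2 peak was 2.49 in the pooled list, 0.881 in replicate 1 and 2.33 in replicate 2. The pooled summit lay 1 bp from the annotated 5' end of F59F5.9, a noncoding RNA gene on the same strand as syd-2. It lay in no other coding promoter window. A second, weaker site in the syd-2 window was in all 3 relaxed lists, 2804 bp upstream of syd-2 in the pooled list (32.3, rank 3417). Its ranks were 4925 in replicate 1 and 9309 in replicate 2. The pooled summit of this site lay nearer to the TSS of F59F5.7, at 1460 bp.

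The syd-1 and unc-10 genes had weaker summits away from their starts. SYD-1 acts in the same assembly pathway as SYD-2. The strongest summit of syd-1 (chromosome II, 7585695 to 7594912, minus strand, WBGene00006363) was distal, with a pooled signal of 33.5 at rank 3084 and ranks of 8965 and 5885 in replicates 1 and 2. It lay 4216 bp upstream of syd-1 and within the promoter windows of pgam-5 and npp-21, 376 bp from the pgam-5 TSS. UNC-10 is the worm RIM protein, which links vesicles, UNC-13 and calcium channels. Inside unc-10 (chromosome X, 7272317 to 7280322, minus strand, WBGene00006750), replicate 2 gave a summit of 19.6 (rank 2932) and replicate 1 one of 13.1 (rank 13031), 177 bp apart. The pooled list had a summit near each of them, of 19.5 (rank 18012) and 29.3 (rank 4730). The unc-10 place was lost with a match distance of 100 bp and with only the strongest 10000 peaks of each list. No list held a promoter summit at syd-1 or unc-10.

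The kinesin gene unc-104, whose product carries synaptic vesicle precursors along axons, had, among the 10 listed genes, the strongest pooled peak outside the reproducible set. It lies on chromosome II (6994987 to 7010625, plus strand, WBGene00006831). The pooled signal was 38.1, rank 2199, below the lowest value in the reproducible set, 51.7. Its −log10 q was 0.692, where the lowest of the set was 2.20. The summit at 6996576 lay in a coding exon, 644 bp downstream of an internal TSS and 1589 bp inside the gene. Replicate 1 gave 20.5 (rank 2292) and replicate 2 gave 16.1 (rank 4821), with summits 23 bp apart. This was the shortest distance between replicate summits among the 10 places of these genes found in both. A promoter summit 204 bp upstream of unc-104 appeared in the pooled list (21.5, rank 13579) and in replicate 1 (16.2, rank 6092), but not in replicate 2. Replicate 1 had a further promoter summit (10.4, rank 24355) 75 bp upstream of an internal TSS.

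**Figure D2:**
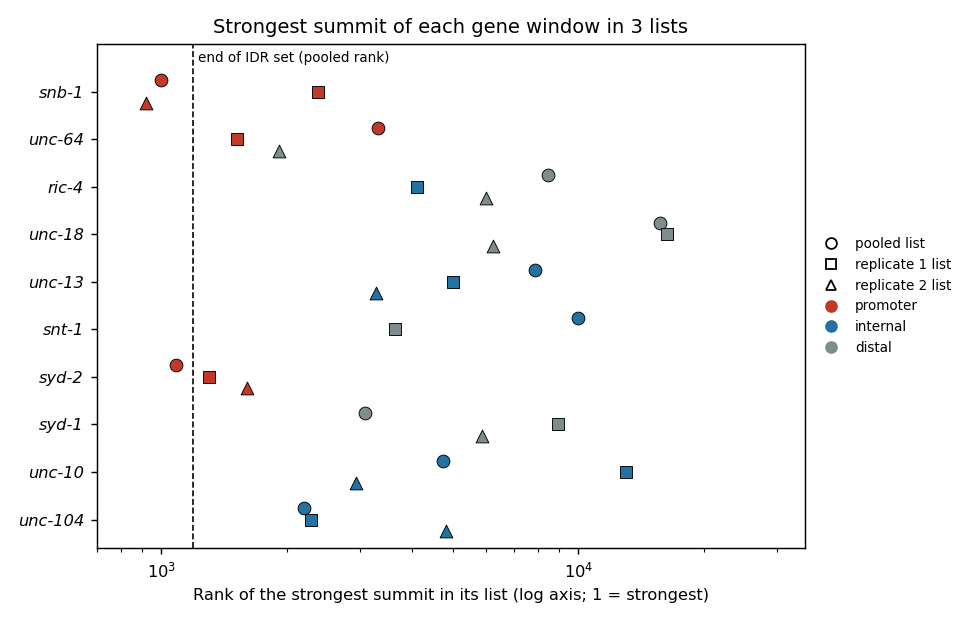
Rank of the strongest summit in each gene's window (log axis) in the pooled, replicate 1 and replicate 2 lists, coloured by zone. Only snb-1 and syd-2 have pooled ranks inside the 1189 of the reproducible set, and snt-1 has no replicate 2 point.

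Taking each replicate alone, the 2 reproducible peaks were not both kept. The strongest 1189 peaks of replicate 2 included snb-1 and not syd-2, where 4.88% of all coding genes had a promoter summit. Those of replicate 1 included neither, where 4.52% had one. Replicate summits lay 41 bp apart at snb-1 and 62 bp apart at syd-2. The median over the 1170 reproducible peaks found in both replicates was 25 bp (quartiles 8 and 53.8), and among those ranked lower than 900 it was 38.5 bp (276 peaks). Both promoter summits were also far from the TSS for this set: 118 of 697 promoter summits (16.9%) lay over 500 bp upstream, and the median was 198 bp. With a promoter window of 500 bp, neither gene kept a promoter call, and 3.8% of all coding genes had one.

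Summits of both replicates within 200 bp of each other were found at 7 of the 10 genes, in 10 places. All coding genes had such a place in 44.1% of cases, and genes with windows in the same range of lengths in 46.1%. By zone, 2 of 10 genes had one in a promoter (16.7% of all coding genes), 3 internally (14.5%) and 4 distally (26.8%). Per length, the 10 windows held 0.686 such places per 10 kb and all coding windows 0.892. With each list limited to its strongest 5000 peaks, 3 genes had one (14.1% of all coding genes): the promoters of snb-1 and syd-2 and the internal site of unc-104. In the full lists, the genes without such a place were unc-64, ric-4 and snt-1.

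**Figure D3:**
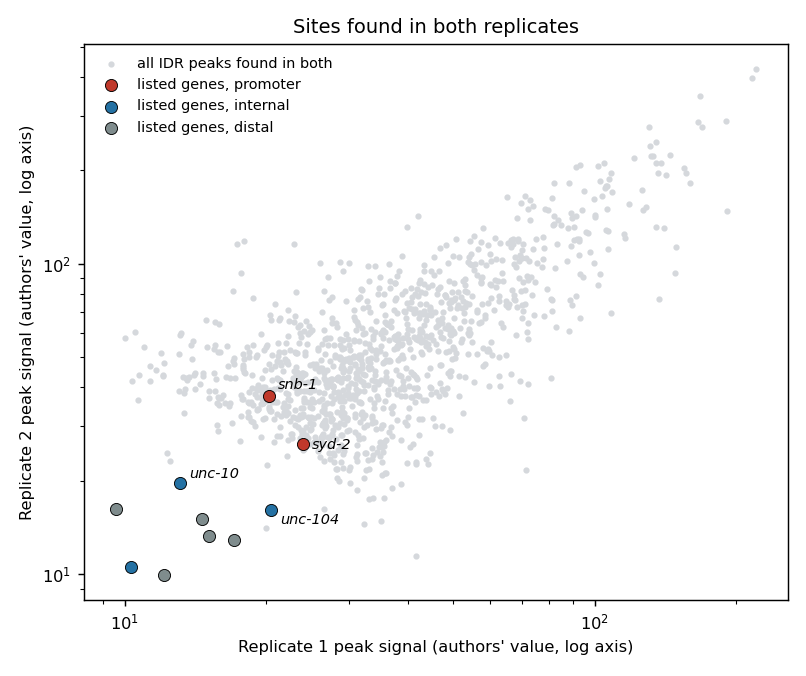
Signal in replicate 1 (x axis) against replicate 2 (y axis), both the authors' values on log axes, for the 10 places of the listed genes found in both replicates (large points, coloured by zone) and for the 1170 reproducible peaks found in both (small grey points). The snb-1 and syd-2 promoters lie in the low part of the grey cloud. The other 8 places have lower replicate 2 signals, of 19.6 or less. In replicate 1 the unc-104 place (20.46) lies just above the snb-1 promoter (20.27).

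Genes related to presynaptic release were read from 7 lists. Not all of them act at the presynaptic terminal: syx-5, for example, is a Golgi syntaxin gene. Of 110 genes, 11 (10%) had a reproducible promoter summit, against the 4.77% of all coding genes, and 28 (25.5%) had one anywhere in the window, against 10.2%. These windows averaged 13.5 kb and those of all coding genes 8.23 kb. Per length, the related windows held 0.216 reproducible summits per 10 kb and all coding windows 0.139. The lists were chosen with earlier results of these data known, so these shares and densities cannot serve as a test. Overlapping windows can count 1 peak for more than 1 gene. Of the 13 distal entries, 9 lay in the promoter window of another coding gene, and 17 of the 28 genes had a summit whose nearest coding TSS was their own.

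Genes of G protein control of release held the most reproducible summits per length of the 7 lists, 0.375 per 10 kb. Of 14, 3 had a promoter summit: egl-30, which encodes the Gq alpha subunit (signal 127, 101 bp upstream of the TSS), eat-16, an RGS protein gene that limits Gq signalling (83.6, 410 bp), and the phosphodiesterase gene pde-4 (59.0, 234 bp upstream of an internal TSS). The egl-30 summit is also in the promoter window of a neighbouring gene. A further 4 had a summit elsewhere in the window, among them the Gs alpha gene gsa-1 (113), kin-1 of protein kinase A (77.0) and the Go alpha gene goa-1 (75.02). The gsa-1 summit lay in the promoter window of vps-4.

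Of 16 axonal transport genes, 3 had a promoter summit (0.312 summits per 10 kb over the list). They were unc-16, a JIP3-type adaptor for kinesin (95.4, 100 bp upstream), the kinesin light chain gene klc-1 (88.0, 619 bp) and unc-76, a kinesin adaptor of the FEZ family (72.7, 335 bp). The klc-1 summit is shared with the let-70 promoter window. Elsewhere in their windows, dnc-1 of the dynactin complex (163), the ankyrin gene unc-44 (65.3) and the dynein heavy chain gene dhc-1 (56.2) had summits, with those of dnc-1 and dhc-1 in the promoter windows of other genes. The kinesin gene klp-6, of the same family as unc-104, had one in an intron (54.2).

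Of 24 SNARE and synaptotagmin paralogs, 3 had a promoter summit: the Golgi syntaxin gene syx-5 (140, 341 bp upstream, nearer to another gene's TSS), syx-3 (74.3, 332 bp) and the synaptotagmin gene snt-2 (63.2, 74 bp, also in the window of rps-29). An intron of snt-4 held another (73.8), and the window of syx-18 takes in the snb-1 peak. Of 13 active zone and calcium channel genes, 1 had a promoter summit, the calcium channel gene unc-2 (63.0, 43 bp upstream), and the channel's beta subunit gene ccb-1 had 2 summits elsewhere (124 and 58.9). Of 12 endocytosis genes, 1 did, dpy-23 of the AP2 adaptor (77.2, 369 bp). None of 15 vesicle and release regulators or of 16 transmitter synthesis and transport genes had one in a promoter. Their windows held summits at scm-1 (163), sph-1 (115), ric-7 (54.5) and aex-6 (52.0), and at cat-2 (147) and mod-5 (56.0). The summits of scm-1, sph-1 and cat-2 lay in the promoter windows of other genes.

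**Figure D4:**
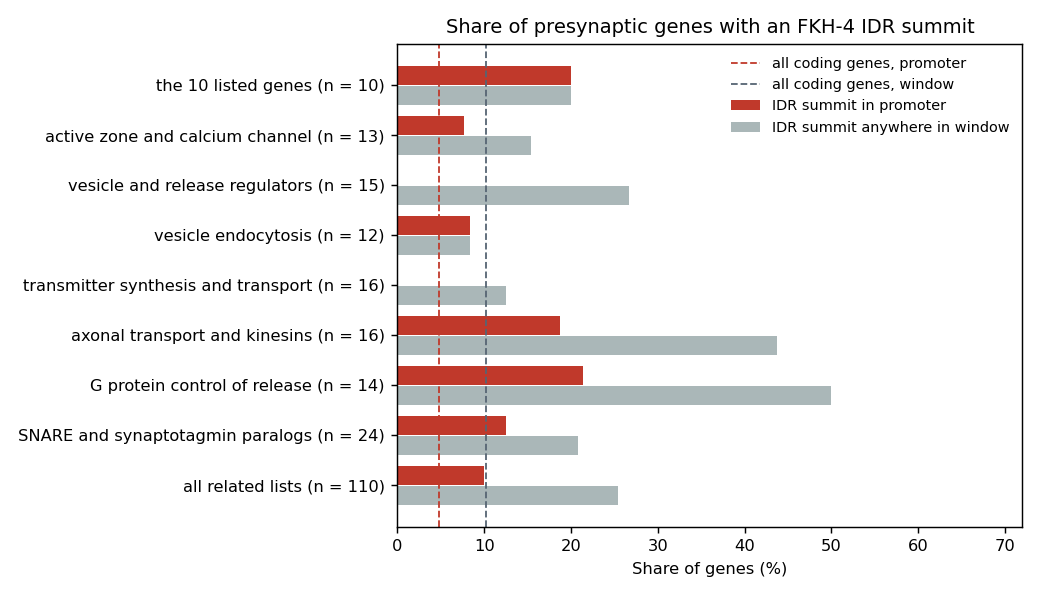
Share of genes (x axis, %) with a reproducible FKH-4 summit in the promoter (red bars) or anywhere in the window (grey bars), for the 10 listed genes and the 7 related lists, with n beside each name. Dashed lines give the shares of all coding genes, 4.77% and 10.2%; bars for window shares also reflect window length.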

How the data were processed

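FKH-4 ChIP-seq peaks of 2 biological replicates were analysed. Per the file listings deposited with them, each relaxed list was made from alignments plus 1 further input, not analysed here, and the IDR set from the 3 relaxed lists. The labels name a possible control experiment. Nothing in the sources used here names the aligner, the caller or an IDR cutoff. The signal values deposited by the authors are never negative, have no stated scale, and served to order peaks inside each list. The −log10 q values deposited by the authors reached 3.30 in the IDR set and fell to 0.0222 in the pooled list, and entered no call. The IDR peaks are the 1189 strongest pooled peaks. Depth is unknown, so no interval is given. The ce10 lists were not used.

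Positions are on ce11, counted from 1. Genes and coding transcripts came from Ensembl release 115 (WBcel235), and sequences from RefSeq's WBcel235. Counts were made in Python 3.11.15 (numpy 2.4.6, pandas 2.3.3), and zone assignment was tested on simulated data. No statistical test was run, so the 2 replicates give no p-value. The members and gene lists were chosen with earlier results of these data known, and 1 related gene was not found in the annotation. All 10 members are named. Of each related list, the genes with a promoter summit and up to 3 others are named, by signal. The genes klp-6, aex-6, F59F5.9 and the neighbours of relaxed or related summits were named after their values were seen. Alternatives varied the promoter window, upstream reach, TSS definition, peak list, assignment, match distance and motif window, and left out each replicate.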

Additional observations from a re-analysis of the deposited data

How the results depend on the processing

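Percentages in brackets are shares of all coding genes under the same setting. Of the 59 alternative values computed, 40 stayed within the limits for an unchanged value and 19 moved. These limits were wide for small counts: a change from 3 to 2 genes or from 7 to 5 counted as unchanged. Some values could not change by construction, such as promoter counts under another upstream reach. The tally therefore does not measure how firm the results are. The count of genes with a reproducible summit (2, in promoters) stayed at 2 with the wider promoter window of 2000 bp and with gene starts as the only TSSs. It also stayed at 2 with upstream reaches of 2000 and 10000 bp and assignment to the nearest coding TSS. Of these, only the nearest-TSS assignment could have removed either gene, whose summits lay 533 and 504 bp upstream of the gene starts. With a 500 bp promoter window, 0 of the 10 genes had a promoter summit (3.8%) and 2 a distal one (5.79%). With only the 594 strongest IDR peaks, 0 genes had a promoter summit (2.72%) and 0 had any (5.6%). The whole pooled relaxed list gave 5 genes in promoters (40.8%), 8 internally (42.3%), 9 distally (67.1%) and 10 in any zone (84.1%). Leaving out a replicate gave 0 to 1 genes in promoters (4.52% to 4.88%) and 0 to 1 in any zone (10.1% to 10.4%). For places found in both replicates (7 genes), a match distance of 100 bp left 2 genes with a distal place (21.6%), from 4 (26.8%). The strongest 5000 peaks of each list left 1 gene internally (2.08%), 0 distally (7.03%) and 3 in any zone (14.1%). The strongest 10000 left 1 internally (4.32%) and 4 in any zone (20.9%), where the full lists gave 3 internally (14.5%) and 7 in any zone (44.1%). With the 2000 bp promoter window, 17 of the 110 related genes had a promoter summit (from 11), as did 6.24% of all coding genes (from 4.77%). Why these counts moved was not tested beyond what each setting adds or removes by construction. No paired analysis was possible because the samples form 1 group. Depth is unknown, so absence from a list does not show that FKH-4 is absent from a gene.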
